A study of Mus musculus with 6 samples.

Results

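The genes described here encode the Polycomb repressive complexes and the enzymes that remove the mark those complexes write. They were chosen by symbol from a list of 32 genes, and the expression table of 24002 genes held all 32. The cells were R1 mouse embryonic stem cells, a line of pluripotent cells, kept with 15% serum replacement and 1000 U/ml LIF, formed into embryoid bodies in hanging drops for 48 h and then given 0.5 mM retinoic acid until day 6. The dose is printed with the unit of the labels, which is open to doubt because micromolar doses of retinoic acid are usual. RNA-seq of polyadenylated RNA came from 3 such samples, all of this 1 condition, and the 3 ATAC-seq samples of the same treatment are not used here. The values are therefore levels at day 6, and no change from untreated cells can be read from them.

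Polycomb repressive complex 2 (PRC2) methylates lysine 27 of histone H3 (H3K27), a mark of silenced developmental genes. Polycomb repressive complex 1 (PRC1) ubiquitinates histone H2A. Its canonical form binds the methyl mark through a Cbx subunit, while its variant forms carry Rybp or Yaf2 in that place. Kdm6a (also called Utx) and Kdm6b (also called Jmjd3) remove the methyl groups from H3K27. Polycomb proteins hold Hox and lineage genes silent in stem cells, and retinoic acid is a classical signal under which part of these genes loses the mark.

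Levels were given in FPKM (fragments scaled to transcript length and to the mapped fragments of the library), which are per length and so allow different genes of 1 library to be set side by side. Summed FPKM per library lay between 477760 and 524717. Absolute read totals are unknown, but from the low values replicate 1 was sequenced about 1.56-fold deeper than replicate 2 and 1.17-fold deeper than replicate 3. Nothing in the labels states whether each replicate was its own culture, and the SDs below may therefore hold technical spread alone. The labelled cell type is embryonic stem cell, but its defining genes Nanog (0.088 ± 0.032 FPKM; SD, n = 3) and Pou5f1 (0.815 ± 0.079) were below 1 FPKM. Of 6 stem cell markers 2, Esrrb and Zfp42, reached 1 FPKM in every replicate, while all 7 neuronal, 7 neural progenitor and 12 extraembryonic endoderm markers did. In such a mixed bulk sample, fewer cells of a type and less RNA per cell cannot be told apart.

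Nearly all Polycomb genes were expressed, and most of them at moderate levels. Of the 32, 31 reached 1 FPKM in every replicate, a share of 96.9% beside 50.7% of all genes in the table, and the exception was Phf19. At 10 FPKM or more in every replicate stood 22 (68.8%), beside 24.5% of all genes. Their median level was 16.3 FPKM, beside 1.31 for all genes and 10.01 for the 12171 expressed genes. The highest member was Phc2, a polyhomeotic subunit of canonical PRC1, at 65.2 ± 1.18 FPKM, above 96.4% of all genes, and the lowest was Phf19 at 0.317 ± 0.107. These shares are descriptions, since the design has no contrast to test.

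**Figure D1:**
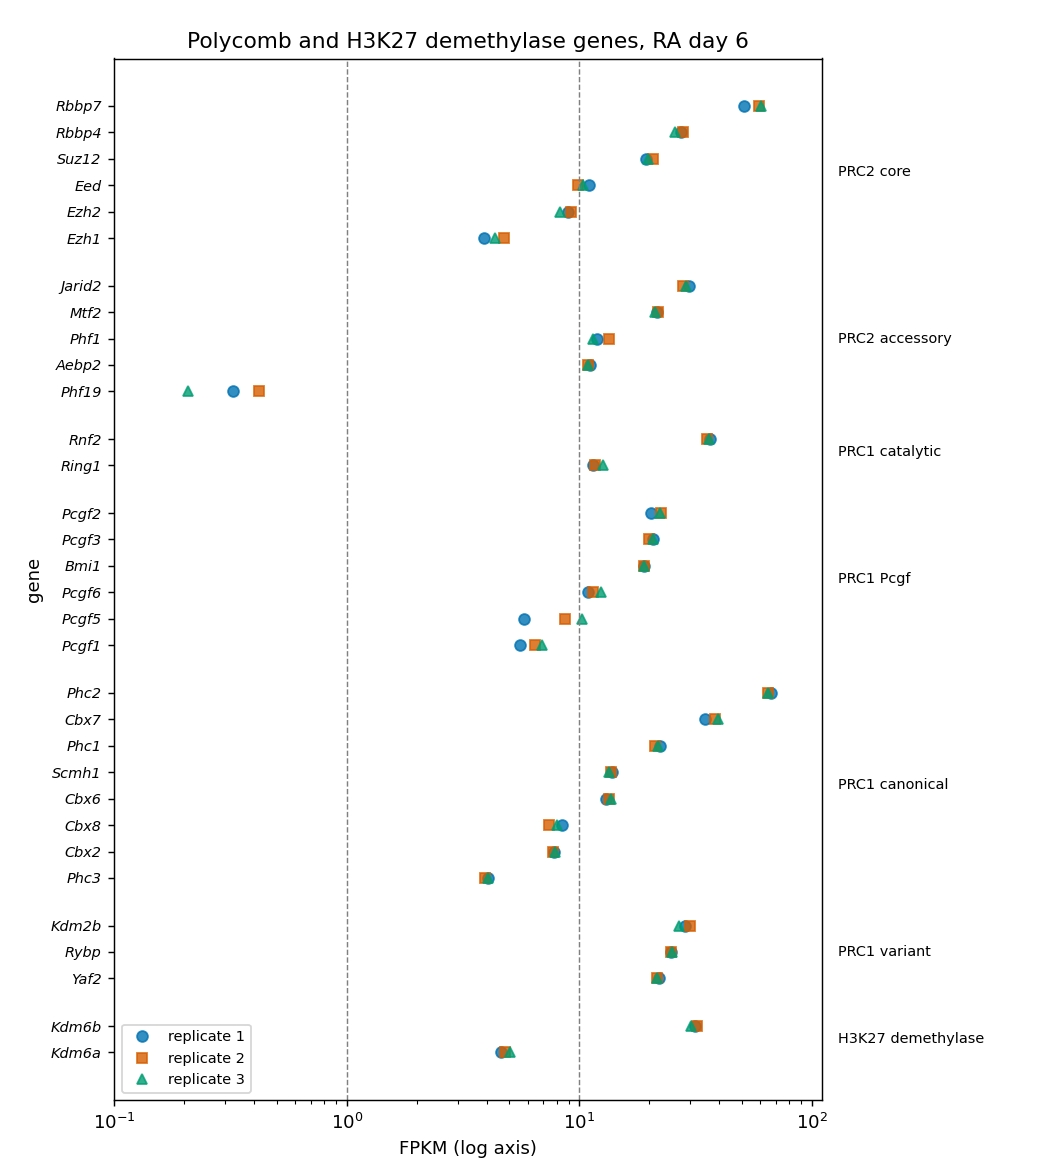
FPKM of the 32 genes in each of the 3 replicates (log axis, 1 point per replicate, grouped by the role of the protein), with dashed lines at 1 and 10 FPKM. Phf19 is the only gene left of 1 FPKM, and Pcgf5 shows the widest gap between replicates among the genes above it.

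In the PRC2 core, the catalytic genes were the lowest and the histone-binding genes the highest. Ezh2, the main H3K27 methyltransferase of dividing cells, was listed at 8.97, 9.21 and 8.25 FPKM in replicates 1, 2 and 3. Ezh1, its paralogue known from cells that have left the cycle, was listed at 3.87, 4.72 and 4.32 FPKM. The libraries of the 2 genes did not overlap, and Ezh2 made up 67.2% ± 2.33 of their summed level (SD, n = 3). Within a library the level of Ezh2 was 2.32, 1.95 and 1.91 times that of Ezh1. With 3 libraries an exact sign-flip permutation test cannot go below p = 0.25, so no test of such ratios was made here or below.

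The scaffold gene Suz12, whose protein holds PRC2 together, stood at 19.4, 20.6 and 19.8 FPKM. Eed, which encodes the reader of the methyl mark that stimulates the enzyme, stood at 10.9, 9.84 and 10.4 FPKM. Both genes were above Ezh2 in every library. The histone chaperone gene Rbbp7 stood at 50.9, 59.0 and 60.6 FPKM and its paralogue Rbbp4 at 27.3, 28.0 and 25.7 FPKM. Rbbp7 was thus the higher in all 3 libraries, with 67.7% ± 2.56 of their summed level. Both proteins also serve other chromatin complexes. Rbbp4 and Rbbp7 are close paralogues, and the way in which the authors split reads between similar genes is not stated in the sources used here.

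Accessory subunits sort PRC2 into a form with a Polycomb-like protein (Mtf2, Phf1 or Phf19) and a form with Jarid2 and Aebp2. Jarid2, which helps to recruit PRC2 and is itself methylated by it, stood at 29.5, 28.0 and 28.7 FPKM, the highest of the accessory genes in each library. Aebp2, a zinc finger partner, stood at 11.1, 10.9 and 10.9 FPKM. Summed levels were 39.7 ± 0.895 FPKM for Jarid2 and Aebp2 and 34.1 ± 1.40 for the Polycomb-like genes. The first sum was 1.20, 1.09 and 1.21 times the other in the libraries, so it was the higher in each, by a small margin.

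The Polycomb-like genes were uneven. Mtf2, the member best known from embryonic stem cells, stood at 21.6, 21.8 and 21.2 FPKM, and Phf1 at 11.9, 13.4 and 11.4 FPKM. Phf19 was listed at 0.325, 0.420 and 0.207 FPKM, below every library of the other Polycomb genes. It made up 0.923% ± 0.276 of the summed Polycomb-like level, against 63.2% ± 1.88 for Mtf2 and 35.9% ± 1.64 for Phf1. On the log2(FPKM + 1) scale Phf1 was 3.33 ± 0.04 above Phf19, a difference that the pseudocount of 1 understates.

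Polycomb-like proteins bind DNA rich in unmethylated CpG, and so does Kdm2b, so the sequence before the start site of these 3 genes is shown with every CpG in capitals, to set the nearly silent gene beside its expressed paralogues. The sequences are the 250 bases before a RefSeq start (build GRCm38.p6, read on the strand of the gene): chr2:34913977-34914226 on the minus strand for Phf19, chr5:108065424-108065673 on the plus strand for Mtf2 and chr17:26932877-26933126 on the plus strand for Phf1. For Mtf2, the start with the more CpGs of those listed is shown.
Phf19: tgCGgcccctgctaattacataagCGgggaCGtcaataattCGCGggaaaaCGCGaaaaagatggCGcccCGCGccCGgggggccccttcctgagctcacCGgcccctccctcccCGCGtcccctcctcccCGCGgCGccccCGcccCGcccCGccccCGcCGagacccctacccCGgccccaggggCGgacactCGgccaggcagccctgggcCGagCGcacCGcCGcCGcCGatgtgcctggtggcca
Mtf2: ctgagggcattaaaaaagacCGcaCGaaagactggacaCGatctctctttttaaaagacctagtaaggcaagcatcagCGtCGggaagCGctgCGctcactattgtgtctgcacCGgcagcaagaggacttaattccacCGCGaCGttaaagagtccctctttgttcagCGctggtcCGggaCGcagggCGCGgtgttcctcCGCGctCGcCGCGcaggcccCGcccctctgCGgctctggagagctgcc
Phf1: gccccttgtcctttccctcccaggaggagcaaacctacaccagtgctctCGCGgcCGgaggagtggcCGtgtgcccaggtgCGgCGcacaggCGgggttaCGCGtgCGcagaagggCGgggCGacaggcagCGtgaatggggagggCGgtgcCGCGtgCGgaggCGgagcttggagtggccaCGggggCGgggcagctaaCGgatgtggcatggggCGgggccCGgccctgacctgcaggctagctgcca

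The window of Phf19 held 31 CpGs and 75.2% G and C, more CpGs than 94.8% of all 32851 RefSeq starts. Mtf2 and Phf1 each held 23 CpGs, with 59.2% and 72% G and C. The window of Phf19 thus held more CpGs than the windows shown for Mtf2 and Phf1, while the other listed start of Mtf2 held 2. Whether CpG content has a part in these levels was not tested. RefSeq starts were found for 27 of the 32 genes, and none for Cbx2, Pcgf1, Rybp, Yaf2 and Kdm6b. The 39 starts had a median of 21 CpGs, beside 6 for all starts and 16 for the starts of expressed genes. Windows with at least 15 CpGs made up 61.5% of the Polycomb starts (24 of 39), 27.3% of all starts and 56.3% of those of expressed genes. By this share CpG richness was close to that of expressed genes, while the median was higher. A gene with several starts counts more than once here. By gene, 20 of 27 Polycomb genes and 5876 of 9181 expressed genes had such a window. The count ranged from 0 at one start of Scmh1 to 45 at another start of the same gene.

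E2F factors drive genes of the cell cycle, and PRC2 genes are known among their targets. The motif was searched as TTTCCCGC, TTTGGCGC, TTTCGCGC or TTTGCCGC on both strands of the 250 bases. It was found at 2 Polycomb starts, those of Suz12 and Phf19, 5.13% of 39, beside 1.86% of all starts and 3.40% of those of expressed genes. In the Phf19 sequence above it reads GCGGGAAA on the printed strand. A match describes letters and shows no binding. The listed starts of the other PRC2 core genes, Ezh1, Ezh2, Eed, Rbbp4 and Rbbp7, had no match.

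**Figure D2:**
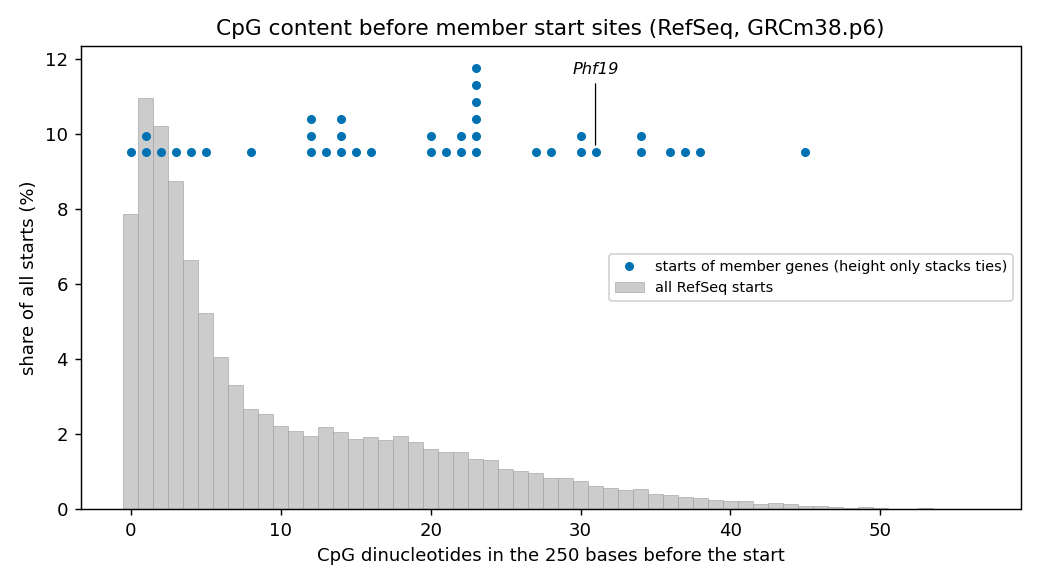
Number of CpGs in the 250 bases before the start (x axis) for all 32851 RefSeq starts (bars, share in percent) and for the 39 starts of Polycomb and demethylase genes (points, whose height only stacks ties). Most points lie to the right of the bulk of all starts, and Phf19 lies at 31.

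The catalytic subunits of PRC1 are the E3 ligases Rnf2 (also called Ring1B) and Ring1. Rnf2 stood at 36.5, 35.3 and 36.1 FPKM and Ring1 at 11.4, 11.7 and 12.6 FPKM. The 2 genes did not overlap, and Rnf2 made up 75.1% ± 1.01 of their sum. The summed Ring level was 3.66 ± 0.260 times the summed Ezh level, and above it in every library.

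Pcgf proteins pair with the Ring ligases and define which PRC1 form is built. Pcgf2 (also called Mel18) and Bmi1 are found in the canonical form. Pcgf1 belongs to the form with Kdm2b, Pcgf6 to a form with E2F6 and Mga, and Pcgf3 and Pcgf5 to further variant forms. All 6 were expressed, and no gene led. Pcgf2 stood at 20.4, 22.5 and 22.2 FPKM, Pcgf3 at 20.8, 19.9 and 20.7 FPKM and Bmi1 at 18.9, 19 and 19 FPKM. These 3 genes held shares of 24.9% ± 0.657, 23.5% ± 1.54 and 21.8% ± 1.1 of the family. Pcgf2 and Pcgf3 changed order between libraries and did not differ beyond their spread, while Pcgf3 was above Bmi1 in each library by 0.10 ± 0.03 (log2).

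The other Pcgf genes were lower. Pcgf6, a subunit tied to repression of germ cell genes, stood at 10.8, 11.5 and 12.4 FPKM. Pcgf1 stood at 5.57, 6.41 and 6.92 FPKM and Pcgf5 at 5.76, 8.63 and 10.2 FPKM. Pcgf5 was above Pcgf1 in all 3 libraries, but by 1.03 times in replicate 1 and 1.48 times in replicate 3. Pcgf2 and Bmi1 together reached 40.7 ± 1.22 FPKM and the remaining 4 Pcgf genes, Pcgf3 among them, 46.5 ± 3.61. Pcgf2 and Bmi1 thus had the smaller sum in each library, at 0.914, 0.893 and 0.822 times the other. These are sums of RNA over genes and do not measure the amount of any form of PRC1.

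Canonical PRC1 adds a Cbx protein, which reads the methyl mark, a polyhomeotic (Phc) protein, which polymerises, and Scmh1 in some complexes. Cbx7, the main Cbx subunit of embryonic stem cells, stood at 34.7, 38.2 and 39.5 FPKM. Cbx6 stood at 13.0, 13.4 and 13.7 FPKM, Cbx8 at 8.43, 7.41 and 7.98 FPKM and Cbx2, the subunit that compacts nucleosomes, at 7.75, 7.73 and 7.86 FPKM. Cbx7 held 56.2% ± 1.69 of these 4 genes, and its libraries did not overlap those of the others. Cbx8 and Cbx2 changed order between libraries, and without replicate 1 Cbx2 was the higher.

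Of the Phc genes, Phc2 stood at 66.6, 64.6 and 64.4 FPKM, Phc1 at 22.1, 21.1 and 21.8 FPKM and Phc3 at 4.03, 3.92 and 4.06 FPKM. No library of one overlapped those of another. Phc2 was 3.01 ± 0.057 times as high as Phc1, and Phc1 5.41 ± 0.069 times as high as Phc3. The shares of 71.8% ± 0.388, 23.8% ± 0.326 and 4.40% ± 0.080 were among the steadiest of the 9 families. Scmh1 stood at 13.7, 13.6 and 13.3 FPKM.

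Kdm2b, Rybp and Yaf2, which belong to variant PRC1, were above 20 FPKM in every library. Kdm2b, whose protein brings PRC1 to CpG islands, stood at 28.5, 29.9 and 26.8 FPKM. Rybp stood at 24.7, 24.6 and 25.1 FPKM and Yaf2, its paralogue, at 22.0, 21.5 and 21.5 FPKM. Rybp was the higher in each library, with 53.4% ± 0.444 of their sum, the most even split of a 2-gene family here. The summed Cbx level of the 4 genes was 1.43 ± 0.058 times that of Rybp and Yaf2.

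Of the 5 families with 2 genes, the H3K27 demethylases were the most unequal. Kdm6b, known as the inducible enzyme, stood at 31.3, 32.1 and 30.3 FPKM, and the X-linked Kdm6a at 4.59, 4.78 and 5.01 FPKM. Every library of Kdm6b was above every library of Kdm6a, by 6.81, 6.71 and 6.04 times. Kdm6b made up 86.7% ± 0.764 of their sum. Together the demethylase genes were listed at 2.75 ± 0.088 times the summed level of Ezh1 and Ezh2. Uty, the Y-linked relative of Kdm6a, stood at 1.83 ± 0.066 FPKM, lower still.

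**Figure D3:**
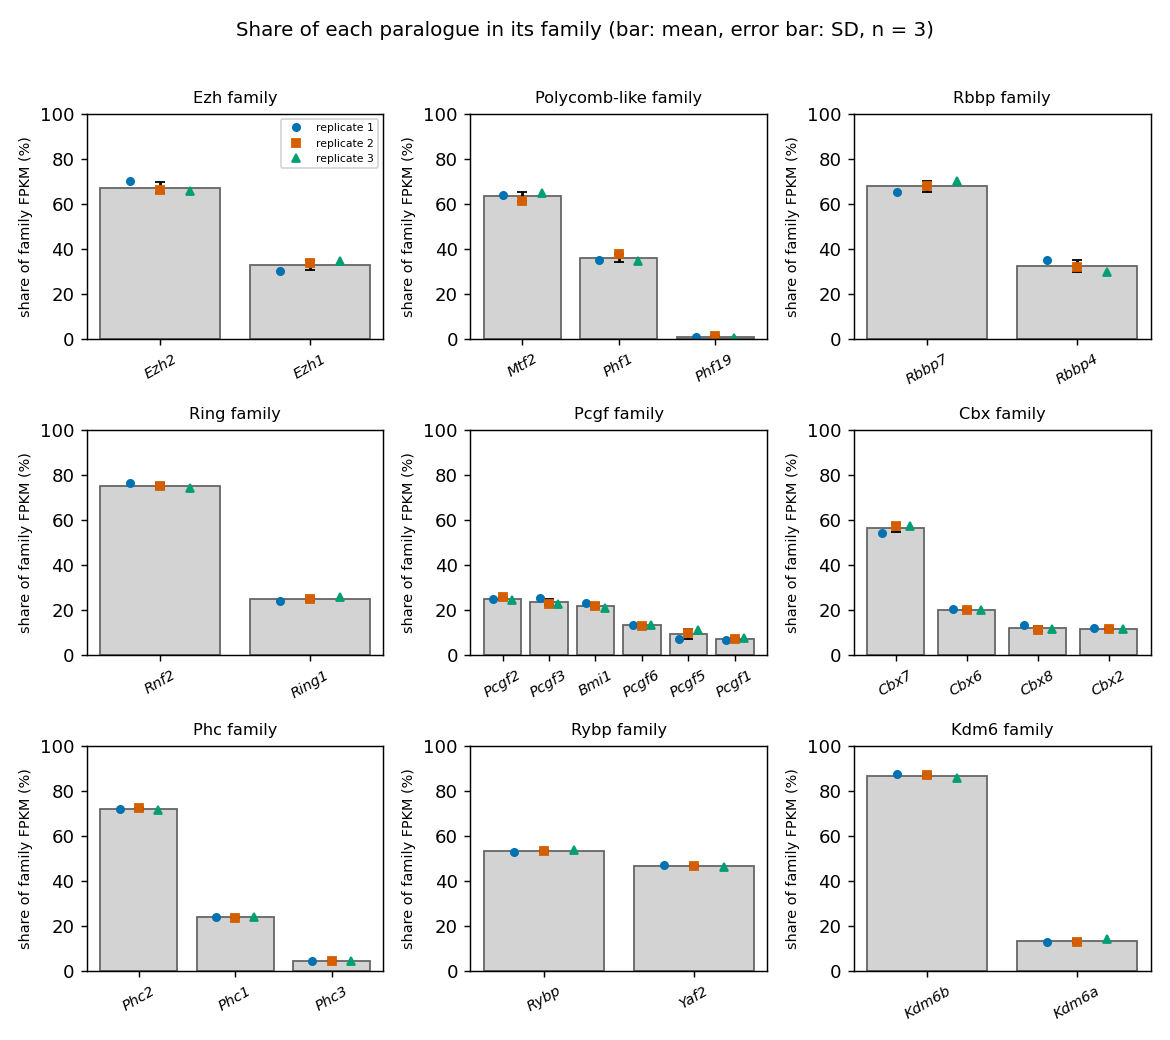
Share of each gene in the summed FPKM of its family (y axis, percent), for 9 families. Bars are means of 3 replicates, error bars SD and points the replicates. Kdm6b (86.7%), Rnf2 (75.1%) and Phc2 (71.8%) lead their families, and the Pcgf and Rybp families have no gene far above the next.

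Of 17 pairs of neighbours within the families, 15 kept their order in every library with a mean difference above its SD. The other pairs were Pcgf2 with Pcgf3 and Cbx8 with Cbx2. Over the whole order of the 32 levels, 17 of 31 neighbouring pairs were separated in this sense and 14 were not. Both orders were set by the means of these same libraries. The share of separated pairs among other genes was not counted, so the counts only describe these genes. From the top, Phc2 was separated from Rbbp7 and Rbbp7 from Cbx7, while Cbx7 and Rnf2 were not separated. No neighbouring pair among Pcgf2, Yaf2, Phc1 and Mtf2, between 21.5 and 21.7 FPKM, was separated, and neither was one among Ezh2, Pcgf5, Cbx8 and Cbx2 lower down.

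Most of these genes varied little between replicates. Among the 31 that averaged 1 FPKM or above, 29 (93.5%) had a coefficient of variation below 10%, beside 82.6% of all 12432 such genes. The median SD of log2(FPKM + 1) was 0.04, beside 0.06 for all such genes. Neither comparison was matched for level, and the median level was 16.3 FPKM here and 10.01 for the 12171 expressed genes. Beside genes within 2-fold of its own level, Suz12, whose SD was the median one, had a larger SD than 41.1%. This figure ran from 0.741% for Bmi1 to 99.7% for Pcgf5, so these genes are not shown to be steadier than others of like level. Bmi1 was the steadiest, with a coefficient of variation of 0.353%, followed by Cbx2 at 0.941%. Those above 10% were Pcgf5 (27.6%) and Pcgf1 (10.8%), with Phf19 at 33.6% below the minimum level.

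Pcgf5 was the gene that stood apart. Its SD of 0.38 (log2) was larger than that of 99.7% of 5439 genes within 2-fold of its level. Its level in replicate 1 was 0.611 times the mean of the other 2 replicates. Rbbp7 (0.85), Pcgf1 (0.835), Ezh1 (0.855) and Cbx7 (0.893) were also lower in replicate 1, each by more than 1.1 times below the next replicate. These 5 of 31 genes are 16.1%, beside 11.4% of all genes. By any amount, 12 of 31 were lowest in replicate 1 (38.7%), beside 36.5% of all genes, and 10 were highest there (32.3%), beside 36.3%. As a list, then, the Polycomb genes were close to the background in this respect.

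Replicate 1 is both the deepest library and the one with the lowest endoderm signal. All 12 extraembryonic endoderm markers were lowest there, none was at 0, and their summed level was 503, 695 and 701 FPKM in replicates 1, 2 and 3. Neuronal markers summed to 2621, 2528 and 2501 FPKM and proliferation markers to 133, 138 and 136 FPKM. The endoderm sum hardly differed between replicates 2 and 3. Pcgf5, Pcgf1, Rbbp7 and Cbx7 were lowest in replicate 1 and highest in replicate 3, while Ezh1 was highest in replicate 2. Ring1, Bmi1, Pcgf6, Cbx6 and Kdm6a had the same order, but none was more than 1.1 times below the next replicate. For Bmi1 the coefficient of variation was only 0.353%. Suz12 and Pcgf2 were also lowest in replicate 1 but highest in replicate 2. The share of all genes that were lowest in replicate 1 and highest in replicate 3 was not counted, so this order is not shown to be particular to these genes. The part of endoderm cells, or of depth, in the level of any of these genes was not tested. In replicates 2 and 3 the gene with the highest share was the same in all 9 families as over the 3 replicates together, a mean that includes them. In replicate 1 the Pcgf family differed, with Pcgf3 (25.3%) above Pcgf2 (24.8%).

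**Figure D4:**
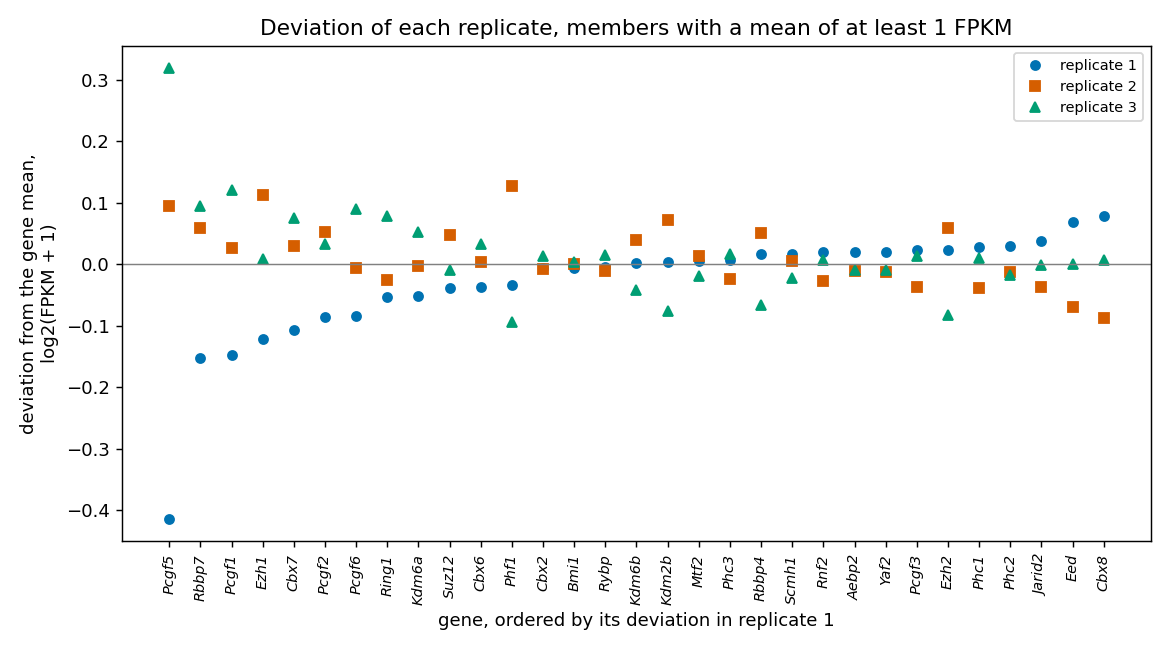
Deviation of each replicate from the mean of the gene, in log2(FPKM + 1), for the 31 genes that averaged 1 FPKM or above, ordered by replicate 1. Pcgf5 is lowest in replicate 1 and highest in replicate 3, and Bmi1, Cbx2 and Rybp lie near 0 in all 3.

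Other genes of the pathway were as widely expressed. In 4 lists of 60 further genes, 59 reached 1 FPKM in every replicate and 36 reached 10, beside 50.7% and 24.5% of all genes, with a median of 14.9 FPKM. Of 30 accessory genes 29 were expressed, led by Skp1a (186 ± 1.41 FPKM), a subunit shared with ubiquitin ligases, Cbx3 (134 ± 5.13), a heterochromatin protein found in the Pcgf6 complex, and the deacetylase gene Hdac2 (94.8 ± 1.92). The exception was L3mbtl1, a reader of methylated histones, listed at 0.139 ± 0.031 FPKM. Named after their values were seen, E130012A19Rik (Epop in RefSeq, a PRC2 partner) stood at 22.0 ± 1.48 FPKM and AU022751 (Ezhip in RefSeq, an inhibitor of PRC2) at 21.0 ± 1.09 FPKM. Both were above Ezh2.

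Genes of enzymes that act against the marks of the complexes, and of partners of these enzymes, were also expressed. All 14 genes of H2A deubiquitinases and their partners were expressed. They were led by Ogt (40.6 ± 1.74 FPKM), a sugar transferase listed as a partner, Bap1 (36 ± 1.71), an H2A deubiquitinase, and Foxk2 (27 ± 1.60), a DNA-binding partner of Bap1. The 10 listed genes of H3K4 methyltransferase complexes, and Uty, were likewise all expressed, with Pagr1a (38.9 ± 2.51), Ash2l (23.7 ± 0.730) and Dpy30 (23.5 ± 1.59) the highest. Pagr1a, Ash2l and Dpy30 encode subunits of the complexes in which Kdm6a resides, which does not hold for every gene of that list. All 5 methyltransferases of H3K36, a mark that hinders PRC2, were expressed, the highest being Whsc1 (34.0 ± 1.96), Setd2 (17.0 ± 0.893) and Nsd1 (16.8 ± 0.805).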

How the data were processed

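The deposited RNA-seq table gives 1 value per gene in each of 3 samples. Its header names no unit, and the values were read as FPKM, since the submitters' processing notes name Bowtie, Cufflinks and the build mm9, with no version or setting in the sources used here. Whether the authors scaled FPKM between libraries, how they divided reads between similar genes and whether they used strand are likewise not stated, which leaves paralogues and overlapping genes uncertain. The deposited ATAC-seq regions are in mm9 and were not used here. Samples were grouped from their titles.

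Expressed means 1 FPKM or above in all 3 replicates. Log values are log2(FPKM + 1). Shares and ratios were taken within a library. Neighbours in level were called separated when the order held in all 3 libraries and the mean log2 difference exceeded its SD. Relative depth is the most common ratio of values between 0.001 and 0.1 FPKM, within 0.004 on the natural log scale, which is assumed to be that of equal read numbers. Without read totals no counting interval is given. RefSeq starts (GRCm38.p6) were matched by symbol. The scripts were tested on simulated data (Python 3.11.15, pandas 2.3.3, NumPy 2.4.6).

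All 32 listed genes are named, and, of each list of other pathway genes, the 3 highest and those below 1 FPKM. Marker lists are given by counts and sums. The members and lists were chosen with earlier results of these data known, and 1 list gene is not reported here. Sums over subunit classes, CpG and motif counts, a threshold of 20 FPKM and the 1.1-fold limit were added after the data were seen. Alternatives were other thresholds, a pseudocount of 0.1, upper quartile scaling and leaving out each replicate.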

Additional observations from a re-analysis of the deposited data

How the results depend on the processing

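Of the recomputed values, 112 stayed within their limits (1.5 times for counts, 1 SD for values), 11 moved and 1 reversed. By construction, leaving out 1 of 3 replicates moves a mean by less than 1 SD, so the shares and ratios could only stay or reverse there. The count of Polycomb genes at the higher threshold was 13 at 20 FPKM, and 5 genes were lowest in replicate 1 by more than 1.1 times. The share of all genes expressed was 54.4% at 0.5 FPKM, 35.7% at 5 FPKM and 66.0% among genes above 0 in a replicate. With a pseudocount of 0.1 the log2 ratios were 1.02 for Ezh2 over Ezh1, 4.92 for Phf1 over Phf19, 1.58 for Phc2 over Phc1, 2.41 for Phc1 over Phc3 and 2.68 for Kdm6b over Kdm6a, each in the same direction, since a smaller pseudocount compresses ratios less. Leaving out each replicate gave a median of the 32 genes between 16.3 and 16.3 FPKM, and a log2 ratio of Cbx8 over Cbx2 between -0.018 (without replicate 1) and 0.063. Upper quartile scaling shifted the libraries by 0.01, -0.02 and 0.01 (log2). No paired analysis was possible because the expression samples form 1 group and the ATAC-seq samples that share their replicate numbers were not used. The planned count of genes with an accessible region at the start was not run, since no annotation of mm9 was used here. Depth limits Phf19 and other genes below 1 FPKM most, above all in replicate 2.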
